A study of Mus musculus with 6 samples.

Results

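The Asb genes encode ankyrin repeat proteins that carry a SOCS box, and 10 of them (Asb1, Asb2, Asb3, Asb5, Asb8, Asb10, Asb11, Asb12, Asb14 and Asb15) are described here in mouse hearts. They were taken by gene symbol, with all 17 of their probe sets, out of 18193 genes and 45037 probe sets on the arrays. Asb5 and Asb14 were picked because they were lower in the knockout, so their difference between genotypes is given as a description. Where a fit calls either gene, the choice favoured that call, and it is no support for the difference. Messenger RNA was measured in whole mouse hearts taken on postnatal day 10, on 1 array per mouse, in 3 wild-type animals and in 3 that lacked miR-1-2. The locus encodes a copy of miR-1, which is made in striated muscle. The sources used here do not give strain, sex, litter or the extent of the deletion. The genotype could not be checked on the microRNA itself, which was not analysed here. Nothing states that each RNA came from a separate litter, and the p-values measure the spread between these 6 arrays.

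In a ubiquitin ligase of this family, the ankyrin repeats of the Asb protein bind the substrate, and its SOCS box binds elongin B and elongin C and recruits the scaffold cullin 5 with the RING protein Rnf7. Ubiquitin passed to the substrate usually marks it for the proteasome. Several Asb genes are best known from striated muscle, where Asb2 drives the loss of filamins as myoblasts differentiate and Asb15 has been tied to the growth of muscle fibres.

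Of the 10 Asb genes, 4 were lower in every knockout heart than in any wild-type heart: Asb5, Asb12, Asb14 and Asb15. Their means in the knockout were between 1.27-fold and 1.72-fold below those of wild type. Another 5 (Asb1, Asb3, Asb8, Asb10 and Asb11) differed by between -0.036 and 0.073 on the log2 scale, and Asb2 was 1.18-fold higher with overlapping groups. Ranges that lay apart with the knockout lower were found for 4.28% of all genes, and ranges apart with the knockout higher for 4.57%. Since Asb5 and Asb14 were chosen for this contrast, the count is also given without them, as 2 of the other 8 genes, Asb12 and Asb15. These were themselves listed with earlier results of these data known, so the choice may have favoured this count too. In all 5 of the 10 were lower, as were 49.8% of all genes. No member passed the adjusted threshold of 0.05 over all genes (limma without a block, 0 of 10 members and 0% of all genes). With the replicate number as a block Asb5 passed, but it was picked on this contrast, so its call is no support. Of the 8 genes not picked for their fall, 3 had an unadjusted p under 0.05, against 4.1% of all genes. Signals are log2 values after robust multi-array averaging (RMA), in which a step of 1 is a doubling, and no level is set against that of another gene because probe sets differ in brightness.

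**Figure D1:**
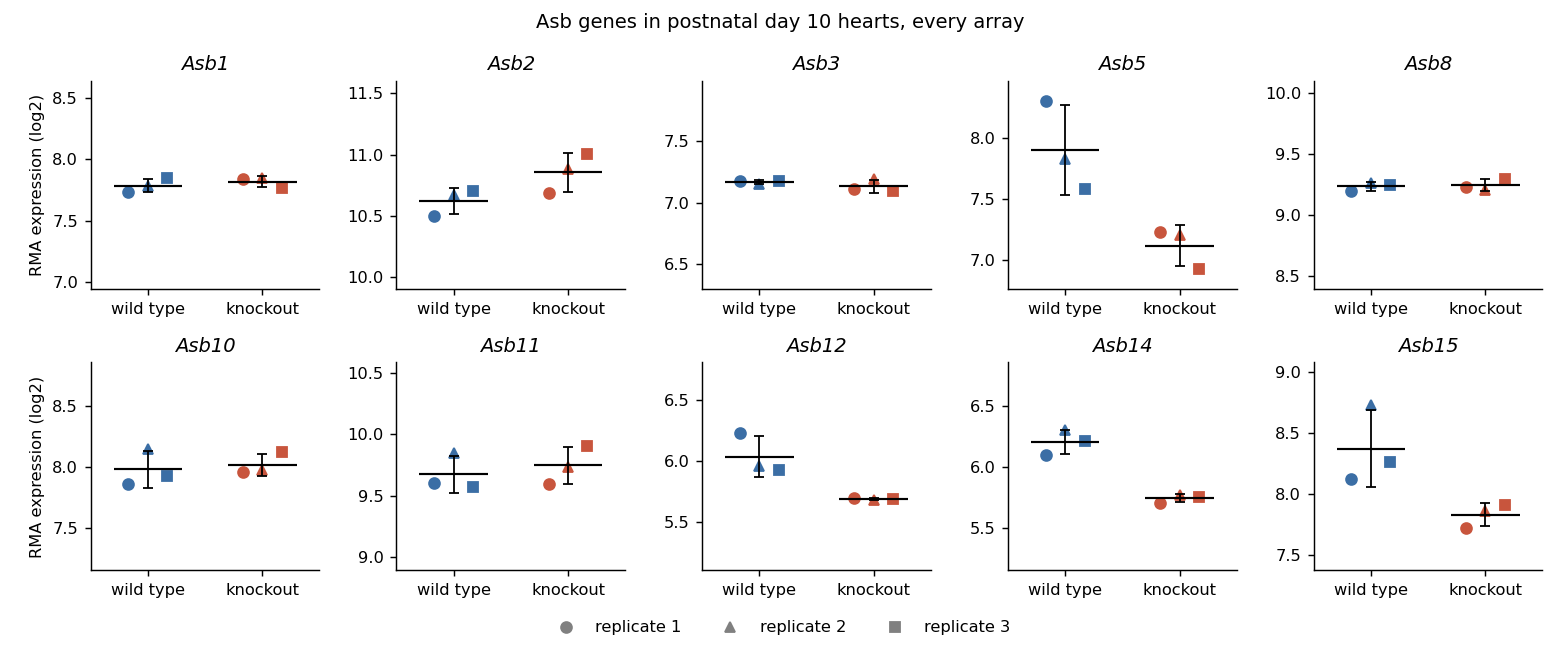
RMA expression (log2) of the 10 Asb genes in each of the 6 hearts, with symbols for the replicate numbers, a horizontal line for the group mean and bars for 1 SD (n = 3). Each vertical axis spans the same log2 width. The knockout points lie below all wild-type points for Asb5, Asb12, Asb14 and Asb15, and the groups overlap for the other 6 genes.

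The promoters of the 4 lower genes are shown because these genes shared a direction, beside that of Asb2, which went the other way. Each sequence is the 250 bases before a RefSeq transcript start in GRCm38.p6, written 5′ to 3′ on the gene's strand, and capitals mark a match on either strand to the MEF2 consensus, the CArG box, the TATA motif TATAAA, the GATA motif AGATAA, the E-box CAGCTG or the MCAT motif CATTCC.
Asb5 first start, chr8:54550081-54550330, plus strand: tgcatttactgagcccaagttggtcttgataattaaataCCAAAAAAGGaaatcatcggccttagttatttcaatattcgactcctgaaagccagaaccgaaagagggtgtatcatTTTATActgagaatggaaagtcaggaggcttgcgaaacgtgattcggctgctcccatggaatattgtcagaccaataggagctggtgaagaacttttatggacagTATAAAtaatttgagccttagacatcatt
Asb5 inner start, chr8:54571189-54571438, plus strand: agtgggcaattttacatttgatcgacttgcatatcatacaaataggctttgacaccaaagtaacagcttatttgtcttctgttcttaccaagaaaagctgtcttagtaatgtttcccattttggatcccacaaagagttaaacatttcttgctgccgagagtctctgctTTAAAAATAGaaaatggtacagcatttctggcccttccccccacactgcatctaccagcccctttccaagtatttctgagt
Asb12, chrX:95478130-95478379, minus strand: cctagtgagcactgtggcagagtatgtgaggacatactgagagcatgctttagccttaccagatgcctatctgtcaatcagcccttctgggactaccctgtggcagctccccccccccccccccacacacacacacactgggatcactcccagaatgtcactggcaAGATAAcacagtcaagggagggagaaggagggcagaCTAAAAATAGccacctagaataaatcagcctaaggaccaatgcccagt
Asb14, chr14:26894364-26894613, plus strand: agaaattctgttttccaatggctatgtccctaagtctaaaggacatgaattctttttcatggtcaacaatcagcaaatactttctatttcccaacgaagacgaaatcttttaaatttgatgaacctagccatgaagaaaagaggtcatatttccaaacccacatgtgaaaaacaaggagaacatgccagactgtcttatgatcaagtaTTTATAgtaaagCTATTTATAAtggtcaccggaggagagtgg
Asb15, chr6:24527894-24528143, plus strand: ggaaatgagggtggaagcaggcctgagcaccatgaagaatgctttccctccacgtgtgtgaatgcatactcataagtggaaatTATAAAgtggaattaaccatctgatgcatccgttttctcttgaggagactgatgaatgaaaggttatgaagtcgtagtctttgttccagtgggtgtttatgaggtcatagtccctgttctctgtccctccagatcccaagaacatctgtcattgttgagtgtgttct
Asb2 outer start, chr12:103356002-103356251, minus strand: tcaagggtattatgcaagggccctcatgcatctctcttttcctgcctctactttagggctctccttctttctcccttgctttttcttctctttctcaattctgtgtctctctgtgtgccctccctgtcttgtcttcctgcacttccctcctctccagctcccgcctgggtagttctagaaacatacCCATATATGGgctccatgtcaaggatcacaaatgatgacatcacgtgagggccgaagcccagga
MEF2 factors and serum response factor, which binds CArG boxes, are regulators of muscle genes. The MEF2 consensus was matched before the inner start of Asb5 and before Asb12 and Asb14, and in none of the other members' windows searched. In Asb14 that match overlapped a TATAAA match on the minus strand, and in Asb12 it lay 48 to 39 bases before the start. Of 32851 such windows in the table, 2.92% held a match to the MEF2 consensus. The CArG box was matched before the first start of Asb5 and the outer start of Asb2, and in 1.47% of all windows. Asb15 held only TATAAA, a match present in 12.4% of windows, and no member held CAGCTG (13.0% of windows). Asb12 also held AGATAA (9.99% of windows), and CATTCC (12.6%) was matched before Asb10 and 1 start of Asb8. Of the 10 genes, 9 had a window in the table, with 14 windows in all. A further Asb5 window and a further Asb2 window, neither with a match, are not printed. These matches are letters in a sequence, not measured binding.

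Asb5 showed the widest separation. This gene has been linked to the growth of collateral arteries and is expressed in striated muscle. Its single probe set read 8.30, 7.82 and 7.58 in wild-type replicates 1 to 3 and 7.23, 7.20 and 6.92 in knockout replicates 1 to 3. The lowest wild-type heart stood 0.35 above the highest knockout heart. The group means were 7.90 ± 0.37 (SD, n = 3) and 7.12 ± 0.17, a log2 difference of -0.78 ± 0.17 (SE), the sixth largest fall in rank among the genes. Wild-type replicate 1 was the highest array, and without it the difference was -0.58.

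Asb14, whose substrates are not well described, was the other gene picked for its fall. It read 6.10, 6.30 and 6.21 in wild type and 5.71, 5.77 and 5.75 in the knockout. The spread inside each group was small against the gap of 0.33 between the ranges. The means were 6.20 ± 0.10 (SD, n = 3) and 5.74 ± 0.03, a log2 difference of -0.46 ± 0.08 (SE) or 1.37-fold.

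Asb15 was represented by 2 probe sets. The brighter one read 8.12, 8.73 and 8.26 in wild type and 7.72, 7.86 and 7.91 in the knockout, so that the groups were 0.21 apart. The difference was -0.54 ± 0.14 (SE), or 1.45-fold, and did not pass (adjusted p = 1.00 with limma, unadjusted p = 0.00521). Wild-type replicate 2 was the high array, and without it the difference was -0.36. The dimmer Asb15 probe set, at a mean of 4.53, differed by -0.14 with overlapping groups, and the mean of both probe sets differed by -0.34.

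Asb12, which lies on the X chromosome, read 6.23, 5.96 and 5.92 in wild type and 5.70, 5.68 and 5.69 in the knockout. The 3 knockout hearts had an SD of 0.0085, below the wild-type SD of 0.17. The difference was -0.35 ± 0.09 (SE), or 1.27-fold, and did not pass (adjusted p = 1.00 with limma, unadjusted p = 0.0046). Falls of at least this size were seen in 69 genes. Both Asb12 and Asb14 lay below the median gene mean of 6.84, in a range where RMA compresses differences, and the files carry no detection call.

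Asb2 was the member with the largest difference in the other direction. Its probe set read 10.50, 10.67 and 10.70 in wild type and 10.68, 10.88 and 11.00 in the knockout. Knockout replicate 1 lay inside the wild-type range, so the groups overlapped. The difference was 0.23 ± 0.10 (SE) with a 95% interval from 0.0062 to 0.46, higher in the knockout in 3 of 3 same-numbered pairs, and it did not pass (adjusted p = 1.00 with limma).

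In their brightest probe sets the other 5 genes showed no difference beyond the spread of the arrays. The 95% intervals give the size of difference that each still allows. These intervals, each taken for its own gene, ran from -0.19 to 0.31. Their outer ends are a 1.14-fold fall and a 1.24-fold rise in RMA signal, and the fit takes no account of sex. Intervals of dimmer probe sets reached further, down to -0.32 for Asb10 and up to 0.38 for Asb3. Asb3, which targets a tumour necrosis factor receptor for degradation, read between 7.15 and 7.18 in wild type and between 7.10 and 7.19 in the knockout. Asb11, an X-linked gene studied in muscle progenitors, read 9.61, 9.84 and 9.57 in wild type and 9.60, 9.73 and 9.91 in the knockout. Asb8 differed by 0.0086, Asb1 by 0.031 and Asb10 by 0.038, with adjusted p = 1.00 for all 5 genes (limma).

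Probe sets of one gene did not always run together. The 2 Asb10 probe sets differed by 0.038 and -0.12, and those of Asb8 by 0.0086 and -0.065, with the groups apart for the dimmer Asb8 probe set. Asb1 had 4 probe sets with differences between -0.010 and 0.077, and the highest of these had ranges apart. The dimmer Asb3 probe set, at 3.56 near the floor of the scale, was 0.20 higher in the knockout. At the level of probe sets 0 of 17 passed over all 45037 (limma, 0.00666% called), and ranges lay apart with the knockout lower for 4.65% of all probe sets and with it higher for 4.05%. Of the 15 member probe sets outside Asb5 and Asb14, 3 had ranges apart with the knockout lower and 2 with it higher.

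**Figure D2:**
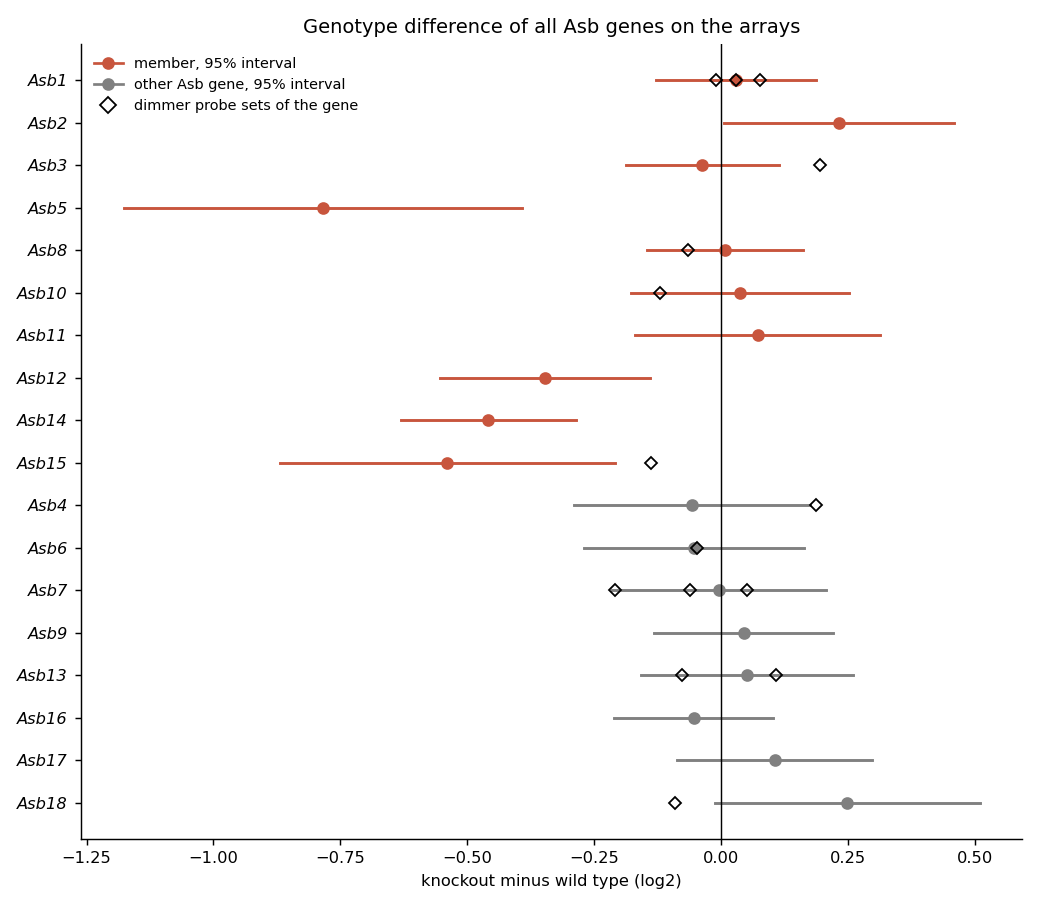
Knockout minus wild type (log2) with its 95% interval for the 18 Asb genes on the arrays, members in red and the other Asb genes in grey, and open diamonds for further probe sets of the same gene. Asb5, Asb12, Asb14 and Asb15 lie between -0.78 and -0.35, and the other 14 genes lie between -0.057 and 0.25.

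The groups overlapped for the 8 further Asb genes on the arrays, each read from its brightest probe set. Of these, 4 were lower and 4 higher, with differences from -0.057 for Asb4 to 0.25 for Asb18. With limma 0 of 8 passed (0% of all genes), and 0 had an unadjusted p under 0.05 (4.1% of all genes). Asb16 and Asb18, which are also known from striated muscle, differed by -0.054 and 0.25. The dimmer Asb18 probe set went the other way, at -0.089. The dimmest of the Asb7 probe sets, at a mean of 4.01, differed by -0.21 with ranges apart, while the brightest differed by -0.0035.

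Inside each genotype the 4 lower genes varied in 2 patterns. After each group's mean was removed, Asb5 and Asb12 deviated together over the 6 arrays (r = 0.89), and so did Asb14 and Asb15 (r = 0.93). Across these pairs the deviations ran against each other, from -0.43 for Asb5 with Asb15 to -0.82 for Asb12 with Asb14. Asb5 and Asb12 were highest in wild-type replicate 1, while Asb14 and Asb15 were highest in wild-type replicate 2 and lowest of their group in replicate 1. All values come from the same arrays and share their normalization, and the removed means leave only 4 free deviations, so these correlations are a description.

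**Figure D3:**
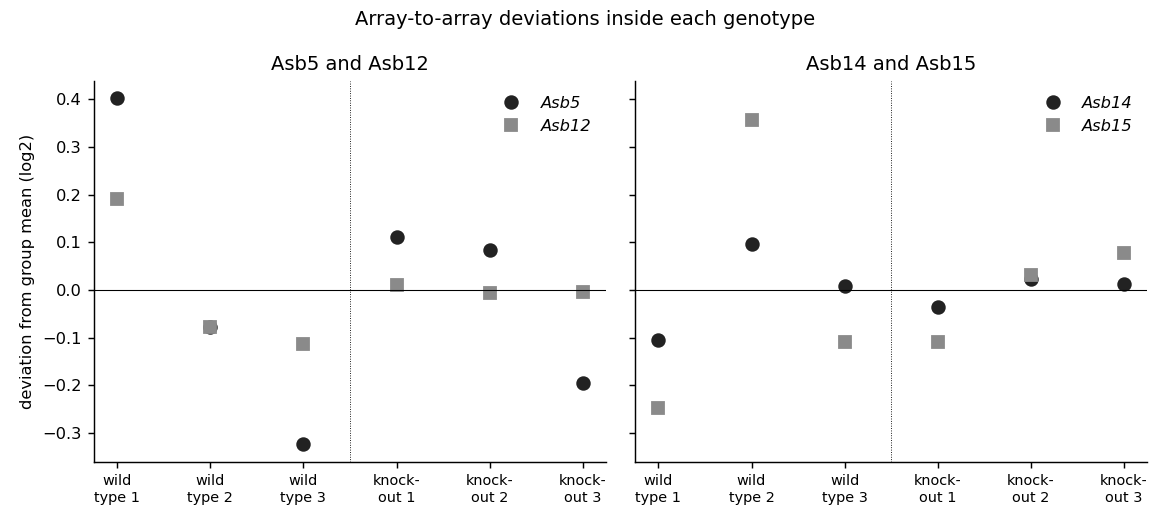
Deviation of each array from its group mean (log2) for Asb5 and Asb12 (left) and Asb14 and Asb15 (right), by array. In the left panel both genes are highest in wild-type replicate 1, and in the right panel both are highest in wild-type replicate 2.

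The arrays also differed by features other than genotype. Xist, expressed from the inactive X chromosome of females, was between 11.91 and 12.19 in the 3 wild-type arrays and knockout replicate 2, and 7.55 and 7.57 in knockout replicates 1 and 3. In these last arrays the Y-linked gene Eif2s3y was at 7.63 and 8.35, so sex was not balanced. Knockout replicate 2, which shares the wild-type Xist level, stood below the wild-type mean by -0.70 for Asb5, -0.51 for Asb15, -0.43 for Asb14 and -0.35 for Asb12. The X-linked Asb12 was at 5.68 in that heart and at 5.70 and 5.69 in the low-Xist knockout hearts. Ucp1, a marker of brown fat, stood at 9.45 and 10.39 in the first replicates and between 5.22 and 6.68 elsewhere. In the first replicates knockout minus wild type was -1.08 for Asb5, -0.53 for Asb12, -0.40 for Asb15 and -0.39 for Asb14. In replicates 2 and 3 it was -0.64, -0.26, -0.61 and -0.49 in the same order of genes.

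Several Asb genes are best known from striated muscle, so markers of skeletal muscle were read beside them. Of 20 skeletal muscle markers 12 were lower and 8 higher in the knockout, with a median difference of -0.010 against 0.00048 over all genes. Their mean level ran from 5.65 to 5.72 in wild type and from 5.62 to 5.69 in the knockout, and the groups overlapped. The fast myosin genes Myh1 and Myh4 differed by -0.012 and 0.074. Both lay below the lower quartile of gene means, 5.49, where RMA compresses differences. So did Myh8, Tnnt3, Tnnc2, Actn3, Myog, Mybpc1, Cacna1s and Myf6, so the list median and mean say little about these genes. The markers above the median gene mean of 6.84 were all lower in the knockout. These were Myh2 (-0.0085), Tnni2 (-0.0027), Atp2a1 (-0.025), Casq1 (-0.16) and Mybpc2. Casq1, the brightest marker of this list, read 9.15, 8.60 and 8.50 in wild type and 8.74, 8.51 and 8.51 in the knockout. Its groups overlapped, and it was highest in wild-type replicate 1, as were Asb5 and Asb12. Mybpc2, a myosin-binding protein of fast muscle, was the one marker with ranges apart and differed by -0.38. Heart muscle markers, 10 of 10 measured, lay between mean levels of 11.5 and 14.5 near the top of the scale and had a median difference of 0.022. Of these 2 were lower and 8 higher. Nppa differed most, by -0.45 ± 0.30 (SE), with knockout replicate 3 at 12.16 and overlapping groups.

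Most myeloid markers were lower in the knockout hearts, and none passed. Of 10 markers 9 were lower, 7 with ranges apart (4.28% of all genes), and 0 passed with limma. An unadjusted p under 0.05 was found for 7, against 4.1% of all genes. The mean level of all 10 was 7.50, 7.16 and 7.27 in wild type and 7.11, 7.09 and 6.94 in the knockout. It was highest in wild-type replicate 1, as for Asb5 and Asb12. The part of the myeloid markers in the difference of these Asb genes was not tested. In whole hearts fewer cells of a type and less RNA per cell cannot be told apart. Lymphoid and thymus markers (7 of 8 lower) and fat markers (3 of 8 lower) overlapped between groups. The RMA scale has no 0, so no marker could be read as absent.

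**Figure D4:**
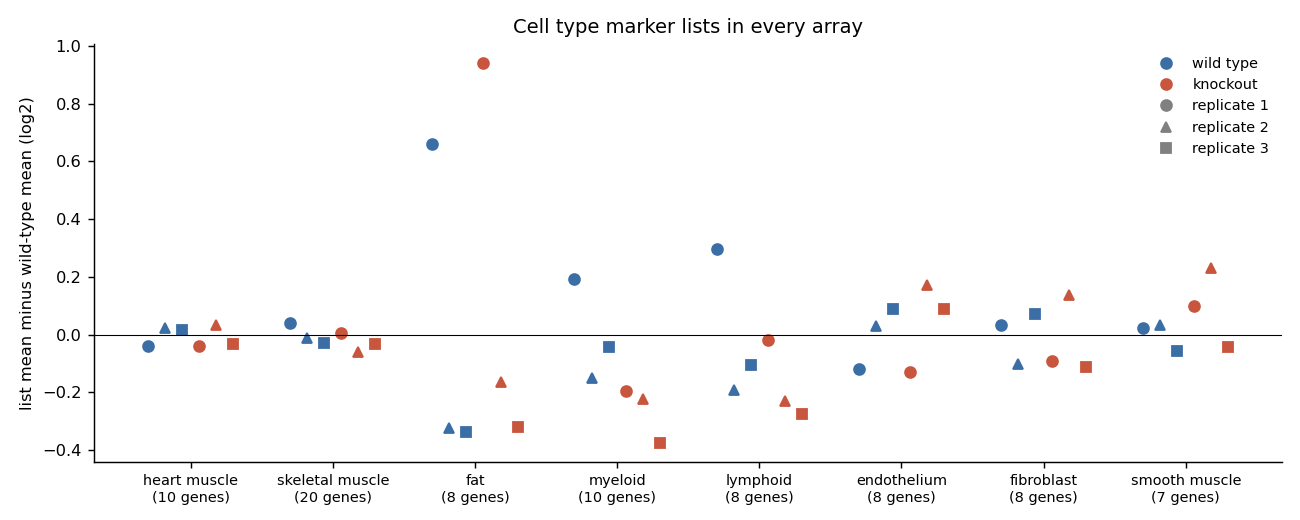
Mean level of 8 marker lists in each array, as the difference from the wild-type mean (log2), blue for wild type and red for knockout. The skeletal muscle mean stays within a narrow band, and the fat mean is high in both first replicates. Ucp1, Cidea and Adipoq are high there, while Fabp4 and Cox8b are not. The myeloid means of the wild-type arrays all lie above those of the knockout arrays.

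The rest of the ligase showed no change that passed. The list of 15 measured genes held the cullin 5 core, factors that act with cullins or on their NEDD8, and Cul2 and Rbx1. Cul2 and Rbx1 are not part of the complex described above. Of the 15 genes 8 were lower and 7 higher, with a median of -0.0038. Ranges lay apart for 0, 0 passed with limma, and 0 had an unadjusted p under 0.05, against 4.1% of all genes. The core subunits are named here for their role, outside the naming rule. Elongin B (Elob) read between 11.27 and 11.38 in wild type and between 11.28 and 11.46 in the knockout. Elongin C (Eloc) differed by -0.0038 and Rnf7 by -0.011. The smallest p in this list was that of Cand1, an exchange factor for cullins, at 0.29 ± 0.14 (SE, adjusted p = 1.00 with limma), with overlapping groups. Next by p were the NEDD8 protease gene Senp8 at -0.13, the scaffold Cul2 at -0.083, the ligase Arih2 at 0.089 and Cul5 at -0.092.

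Among 17 other SOCS box genes 12 were lower and 5 higher (median -0.044), and 0 passed with limma. Ranges lay apart for 1 gene lower and 1 gene higher, against 4.28% and 4.57% of all genes. An unadjusted p under 0.05 was found for 1 gene, against 4.1% of all genes. That gene was Socs1, an inhibitor of JAK kinases, at -0.21 with ranges apart. Cish, an inhibitor of STAT5 signalling, differed by 0.18, also with ranges apart, and Spsb4 by -0.17.

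Messenger RNA of reported substrates and partners of Asb proteins went both ways, and their protein and its degradation were not measured. Of 15 genes measured 5 were lower and 10 higher (median 0.033), and 0 passed with limma. Ranges lay apart for 0 genes lower and 2 higher, against 4.28% and 4.57% of all genes. An unadjusted p under 0.05 was found for 1 gene, against 4.1% of all genes. That gene was Ckb, brain-type creatine kinase and a partner of Asb9. It read 9.95, 10.03 and 10.08 in wild type and 10.39, 10.35 and 10.30 in the knockout. The groups were apart, with a difference of 0.32 ± 0.07 (SE, adjusted p = 0.741 with limma), while Asb9 differed by 0.046. Bik, a death-promoting protein reported as an Asb11 substrate, differed by 0.14 with ranges apart, and Tcf3, reported as an Asb2 substrate, by 0.23 with overlap. Filamin A (Flna), an Asb2 substrate named outside the rule for its known role, differed by 0.078 and filamin C (Flnc) by -0.13.

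The genes whose levels followed Asb5 most closely over the 6 arrays were Carnmt1 (r = 0.99), Cpne5 (0.98), Rgs10 (0.98), Rtn2 (0.97) and Dcaf6 (0.97), out of 8856 genes at or above the median level. Their correlations with Asb5 inside the genotypes lay between 0.91 and 0.99, and they differed between genotypes by -0.12 to -0.23. For Asb14 the closest were Mybpc2 (r = 0.99), Tnfaip8 (0.99), Trmt5 (0.98), Lsm11 (0.96) and Prepl (0.96). Inside the genotypes the correlation with Asb14 was 0.83 for Mybpc2 and 0.054 for Lsm11. These are the highest of many correlations over 6 arrays that share their normalization, and they are given as a description.

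The size of the difference in Asb5, Asb12, Asb14 and Asb15 moved with the arrays and settings used. Leaving out an array cannot turn the sign in these 4 genes, because their ranges lay apart. Over the alternatives Asb5 ranged from -0.95 to -0.58, Asb15 from -0.66 to -0.34, Asb14 from -0.51 to -0.41 and Asb12 from -0.40 to -0.25. When replicate numbers entered the fit as a block, 13 genes passed (0.0715% of all genes). Asb5, picked on this contrast, was among them, and 0 of the 8 members not picked for their fall passed (limma, smallest adjusted p = 0.18 for Asb15), while 3 had an unadjusted p under 0.05 (7.29% of all genes). With weights estimated for each array 2.29% of all genes passed. Of the 8 members not picked for their fall 2 passed, Asb2 higher and Asb12 lower, and the picked genes Asb5 and Asb14 were lower and past the threshold as well. Those weights ran from 0.22 for knockout replicate 1 to 4.74 for knockout replicate 3.

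**Figure D5:**
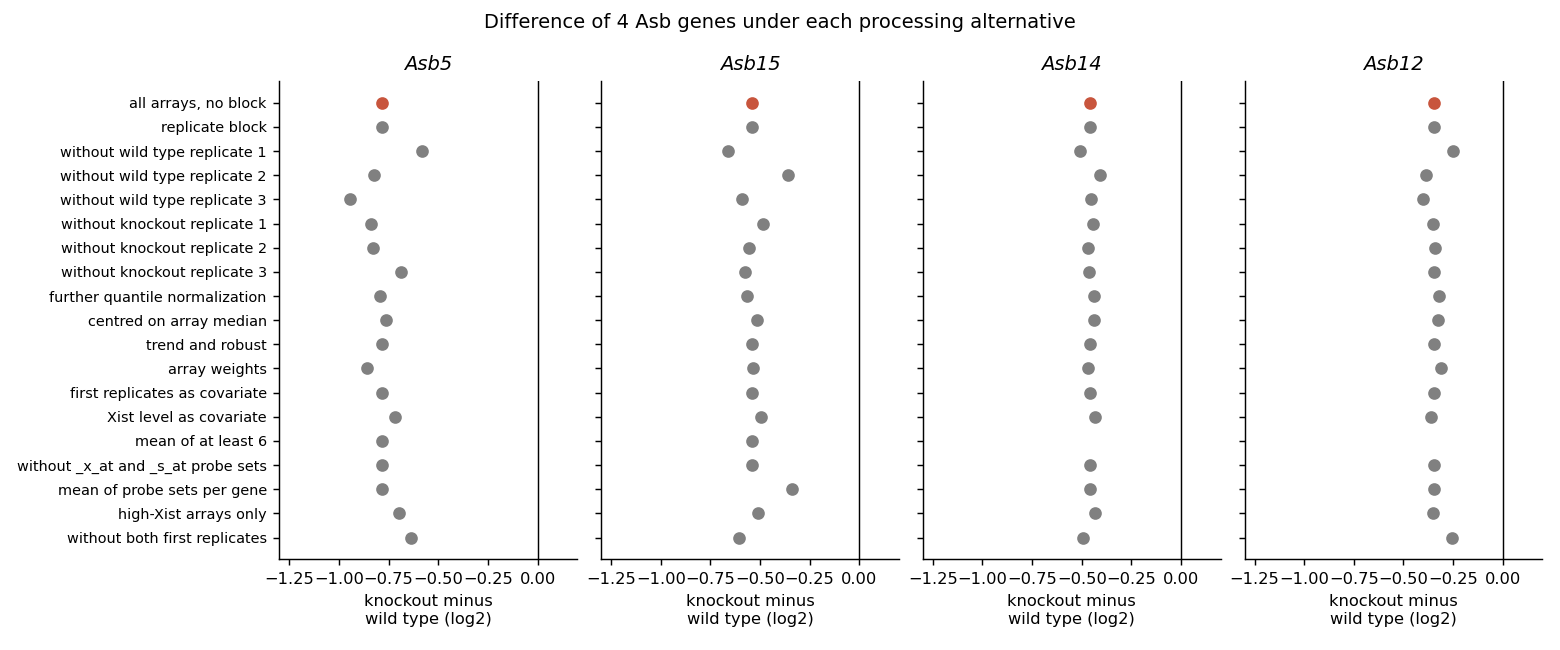
Knockout minus wild type (log2) of Asb5, Asb15, Asb14 and Asb12 under each processing alternative, with the fit of all arrays without a block in red. All points lie left of 0, and Asb12 and Asb14 have no point where genes with a mean below 6 were left out.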

How the data were processed

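Total RNA was extracted with Trizol, amplified in 1 round with biotin and hybridised to mouse expression arrays, per the labels' protocols. The authors deposited log2 expression values made with RMA in the affy package, per the series' design text, and arrays were scanned with GCOS 1.4, as the submitters' processing notes say. RMA forces all arrays to one distribution, which removes changes shared by most genes. Control probe sets (64) were left out. Gene names came from the platform annotation and were updated through gene identifiers (RefSeq, GRCm38.p6). The brightest probe set by mean stood for a gene. Array medians lay between 6.03 and 6.11, and the number of arrays limits precision.

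The groups were compared with limma 3.58.1 in R 4.3.3 (lmFit, eBayes). P-values were adjusted by Benjamini-Hochberg over every gene or probe set tested, and the steps were tested on simulated data. Members and lists were chosen with earlier results of these data known. Named were all Asb genes, up to 5 genes of each pathway list with the smallest p, and the 5 genes most like Asb5 and Asb14. The core subunits Elob, Eloc and Rnf7, Flna and the tissue and sex markers were named outside this rule.

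Replicate numbers were checked as pairs: deviations of same-numbered arrays correlated at 0.54, 0.18 and 0.13 across genes, all above the 0.1 required, so a fit with the number as a block is given where it changes a call. The differences, SEs and p-values are otherwise from the fit without a block. The deviations of each group sum to 0, so the correlation in pair 1 by itself raises those among replicates 2 and 3, however these are paired. Passing 0.1 is therefore no evidence for pairs 2 and 3. Only the shared numbers in the titles link pairs 2 and 3, and the titles do not say what a number marks. Their crossed pairings correlated at 0.35 and 0.30, above the same-numbered ones.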

Additional observations from a re-analysis of the deposited data

How the results depend on the processing

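The alternatives with high-Xist arrays only and without both first replicates were chosen after seeing the data. The default fit called 0 genes, 3 probe sets and 0 Asb members. With the replicate block it called 13 genes, 20 probe sets and 1 member (Asb5), and the block changed no other call among the members. With array weights it called 416 genes (2.29%), 24 probe sets and 4 members, the picked genes Asb5 and Asb14 and 2 of the 8 others (Asb2 higher, Asb12 lower). With the first replicates as a covariate 15 genes and 24 probe sets passed, with a gene's probe sets averaged 3 genes, without both first replicates 1 gene, and with trend and robust variance 6 probe sets. With the Xist covariate, a minimum mean of 6, or no _x_at and _s_at probe sets, 0 probe sets passed. Leaving out 1 array gave 0 to 4 genes (4 without knockout replicate 1, 2 without knockout replicate 2), 1 to 15 probe sets (15 without knockout replicate 2, 6 without knockout replicate 1, 1 without each wild-type array) and 0 members. The causes were not tested.

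Of the 10 members 5 were lower, 5 to 8 with 1 array left out (8 without knockout replicate 3), and 3 with a minimum mean of 6, which removes Asb12 and Asb14. Sign changes were seen only in members near 0. Leaving out 1 array gave -0.019 to 0.029 for Asb8, -0.023 to 0.12 for Asb10 and -0.0081 to 0.16 for Asb11. Asb8 was -0.024 with further quantile normalization, -0.029 with the Xist covariate, -0.028 with the mean of probe sets, -0.033 in high-Xist arrays and -0.0048 without both first replicates. Asb3 was 0.018, 0.080 and 0.022 with the Xist covariate, the mean of probe sets and high-Xist arrays, and Asb10 was -0.041 and -0.0028 with the last 2. Asb1 was -0.019 with array weights, -0.0063 without both first replicates and up to 0.060 with 1 array left out. In the high-Xist fit the lone knockout array is assumed to vary like the wild type.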
